A study of Mus musculus with 50 samples.

Results

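The response of developing mouse oligodendrocytes to 8 h of thapsigargin was measured in 10 of the 50 bulk RNA-seq libraries of the series. The 5 treated libraries were 2 WT and 3 Nrf2-/- (a homozygous null of Nfe2l2, the gene of the oxidative stress factor NRF2), and the 5 untreated 8 h libraries were likewise 2 WT and 3 Nrf2-/-. The other 40 libraries, used for the 1 h comparison and for levels across the series, were untreated, thapsigargin or IFN-γ (interferon gamma, 200 U/ml) cells of both genotypes at 1 h, IFN-γ cells at 8 h, and untreated or IFN-γ cells at 24 and 48 h. The 10 libraries described here were chosen by the treatment and genotype in their titles and by their hour, not by any measured value. All cells were C57BL/6 oligodendrocyte progenitors immunopanned from cortices of 6-day-old pups, taken through 2 passages and left to differentiate for 12 to 14 h before treatment, although a tissue tag reads whole brain. The thapsigargin dose is labelled as 200 µM, and the design text speaks of 4 Nrf2-/- replicates per time where 3 are held here. The labels do not say whether replicates were separate cultures, so the p-values here speak only of library-to-library spread, part of which may be technical.

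Thapsigargin blocks SERCA, the pump that fills the endoplasmic reticulum (ER) with calcium. Without that calcium, ER chaperones fold proteins poorly, and 3 ER membrane sensors respond: ATF6, which is cut to release a transcription factor, IRE1 (Ern1), which splices Xbp1 mRNA, and PERK (Eif2ak3), which phosphorylates eIF2α, slows translation and favours translation of ATF4. Oligodendrocytes make large amounts of membrane protein and lipid for myelin, and the unfolded protein response of this lineage is studied in myelin disease.

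The 10 libraries held 33798002 to 36988431 counted reads with thapsigargin and 36256907 to 38344712 without. Levels are given as CPM, the counts scaled to a common library size after TMM scaling, as mean ± SD with n = 5 in each group unless stated. The SE of a log2 fold is its size divided by the square root of the F statistic of its edgeR test. Where a group is near empty, this SE can fall below the counting error alone. That holds for Slc7a11, Trim66, Nupr1, Derl3 and Kdelr3, whose folds are less precise than their SE reads. Values by library are listed with the 2 WT libraries first and the 3 Nrf2-/- libraries after them. Mitochondrially encoded transcripts took 0.55 to 0.62% of the counts with thapsigargin and 0.69 to 0.79% without; the part of this shift in other results was not tested. The untreated library labelled Nrf2-/- replicate 3 and the thapsigargin library WT replicate 2 stood apart: among 6167 genes above an average log2 CPM of 5, the first lay alone at an end of its group in 493 genes and the second in 296, against 9 to 60 in each of the other 8 libraries. Replicate 2 of both Nrf2-/- groups carries a wild type genotype tag against its title. Nfe2l2 stood at 17.4 and 17.2 CPM in WT and 0.62, 0.67 and 0.86 CPM in Nrf2-/- cells with thapsigargin, and at 5.05 and 10.1 CPM in WT and 0.21, 0.18 and 7.70 CPM in Nrf2-/- cells untreated. Both libraries with conflicting labels thus had the low level of the mutants, and the library labelled Nrf2-/- untreated replicate 3 did not. Counts of called genes without these libraries stand beside the pooled ones below. In the pooled test Nfe2l2 was not called (log2 fold -0.16, adjusted p = 0.902), and without that 1 library it was (1.26, adjusted p = 0.000294).

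Markers of the oligodendrocyte lineage were abundant: the 10 listed genes summed to 3845 to 4331 CPM with thapsigargin and 10598 to 11322 CPM without. Of 10 microglial and macrophage markers 8 stayed under 1 CPM in all 10 libraries, and the list summed to 4.73 to 6.13 CPM with thapsigargin and 4.76 to 6.57 CPM without. Of 12 endothelial, mural and fibroblast markers 11 stayed under 1 CPM, with sums of 2.25 to 3.25 CPM with thapsigargin and 1.37 to 1.89 CPM without.

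Most tested genes passed. Of 15046 genes tested, 10296 (68.4%) passed an edgeR BH-adjusted p threshold of 0.05, 5394 of them higher with thapsigargin (35.9%) and 4902 lower (32.6%). At least a 2-fold change was reached by 1899 higher genes (12.6%) and 1559 lower genes (10.4%), together 23%; a 4-fold change by 659 higher and 425 lower genes, and a 16-fold change by 167 higher and 42 lower genes. The 5 thapsigargin libraries lay above all 5 untreated libraries for 4363 genes (29%) and below them for 4032 (26.8%), while the median log2 fold over all tested genes was 0.04. Which direction held more calls depended on the setting: in 7 of 20 alternative fits lower calls outnumbered higher ones, as with no filter on low counts (4957 higher, 5568 lower) or without Nrf2-/- untreated replicate 1 (4815 and 5106), and higher genes made up 47.1 to 52.5% of the calls over these fits. Without the 3 libraries whose genotype is in doubt 9776 genes passed, and without the 2 libraries that stand apart 10633. Since about 1 gene in 3 passed in each direction, the counts for gene groups below are read against 35.9% higher and 32.6% lower. The plot of 22 gene lists shows these groups ordered from the stress regulators, highest, to the cell cycle genes, lowest.

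**Figure D1:**
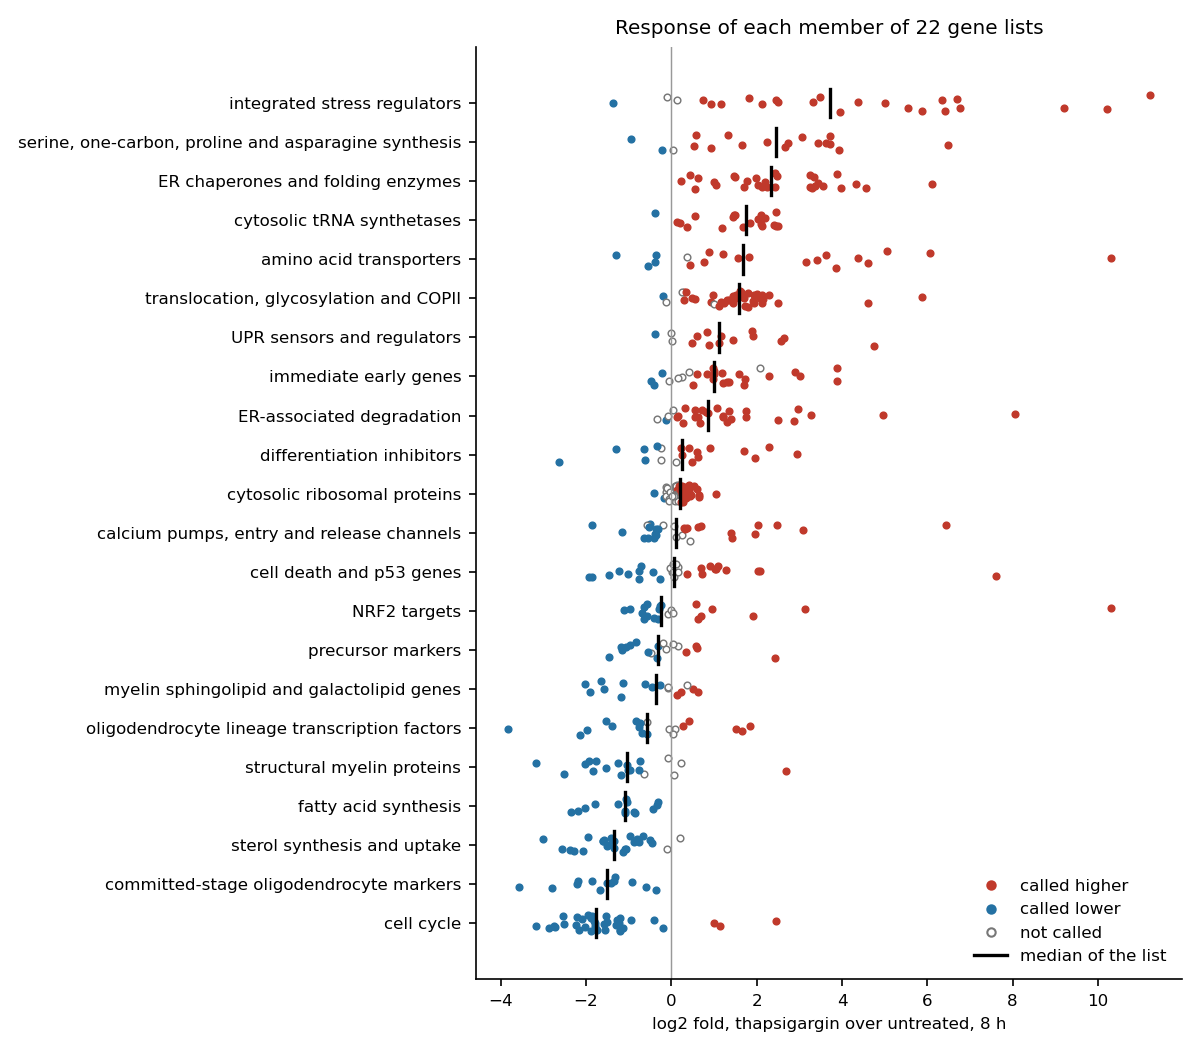
Log2 fold of thapsigargin over untreated cells at 8 h (horizontal axis) for each tested member of 22 gene lists (1 line each). Each point is 1 gene, red where called higher, blue where called lower and open where not called, and the black bar is the list's median, from 3.72 for the stress regulators to -1.77 for the cell cycle.

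ER chaperones and folding enzymes rose as a whole. All 30 listed genes passed the test in the higher direction, 26 of them by 2-fold or more, with a median log2 fold of 2.34 against 0.04 over all genes tested. Together these 30 genes took 4.16 ± 0.22% of the scaled counts with thapsigargin and 0.69 ± 0.01% without. Hspa5 (BiP, the main ER HSP70 chaperone and a brake on all 3 sensors; ENSMUSG00000026864.13, GENCODE M21, GRCm38, chromosome 2, 34771970 to 34777547) was at 8945, 7813, 8702, 9172 and 9478 CPM with thapsigargin, against 847, 820.4, 770.1, 827 and 805 CPM untreated. The groups stood far apart, with the lowest treated value in WT replicate 2 (log2 fold 3.44 ± 0.07 SE, adjusted p = 4.41e-14). Hsp90b1 (GRP94, the ER HSP90) was at 6789.5, 7228, 6120.2, 6443 and 7169 CPM with thapsigargin, against 662, 649.6, 639, 637 and 712 CPM untreated, again without overlap (log2 fold 3.35 ± 0.07 SE, adjusted p = 5.32e-14). Creld2, a secreted ER stress protein, averaged 1122 ± 69.2 CPM with thapsigargin and 47.6 ± 1.90 CPM without (log2 fold 4.56 ± 0.06 SE, adjusted p = 2.51e-15). Sdf2l1, a BiP cofactor, averaged 876 ± 83.4 CPM with thapsigargin and 56.01 ± 4.62 CPM without, and Fkbp11, an ER prolyl isomerase, 37.4 ± 3.83 CPM with thapsigargin and 0.534 ± 0.157 CPM without. Ero1lb, an oxidase that makes disulphide bonds, was at 131 ± 5.21 CPM with thapsigargin and 6.50 ± 0.130 CPM without. The BiP co-chaperone Dnajb9 averaged 174 ± 11.4 CPM with thapsigargin and 16.8 ± 1.15 CPM without.

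ATF6 and XBP1 are known to act through the ER stress response element (ERSE). It was searched as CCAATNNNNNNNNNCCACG on both strands of RefSeq windows (GRCm38.p6) reaching from 250 bases before to 50 after the start, and a variant, ERSE-II, as ATTGG and CCACG with 1 base between them, which shares the letters CCACG with ERSE; no matches overlap in the windows shown. ERSE was present in 8 of the 27 chaperone genes with a window (29.6%) against 19 of the 10501 tested protein-coding genes with a window (0.181%), and ERSE-II in 1 (3.7%) against 9 of these genes (0.0857%). A gene can have several windows; by window, ERSE was in 39 of all 32851 (0.119%) and ERSE-II in 12 (0.0365%). Among lists described further on, ERSE was in 2 of 22 genes of ER-associated degradation with a window (9.09%). It was in 0 of 33 genes of translocation, glycosylation and COPII transport. The sensors and regulators of the unfolded protein response held it in 0 of 12. A match is a description of letters, not of binding. The windows of Hspa5 (chr2:34771840-34772139, plus strand), Hsp90b1 (chr10:86705395-86705694, minus strand) and Herpud1 (chr8:94386179-94386478, plus strand) are shown because each of these strongly raised genes holds such an element. Capitals mark the fixed letters of each match. In Hsp90b1 the second ERSE and in Herpud1 the CARE element described further on lie on the opposite strand.
Hspa5: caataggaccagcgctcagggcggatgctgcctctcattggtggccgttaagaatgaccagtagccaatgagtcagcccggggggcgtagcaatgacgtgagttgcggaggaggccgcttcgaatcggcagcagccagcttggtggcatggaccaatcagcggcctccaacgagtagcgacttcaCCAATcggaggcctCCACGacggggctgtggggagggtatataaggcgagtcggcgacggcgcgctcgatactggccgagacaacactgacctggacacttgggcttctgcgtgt
Hsp90b1: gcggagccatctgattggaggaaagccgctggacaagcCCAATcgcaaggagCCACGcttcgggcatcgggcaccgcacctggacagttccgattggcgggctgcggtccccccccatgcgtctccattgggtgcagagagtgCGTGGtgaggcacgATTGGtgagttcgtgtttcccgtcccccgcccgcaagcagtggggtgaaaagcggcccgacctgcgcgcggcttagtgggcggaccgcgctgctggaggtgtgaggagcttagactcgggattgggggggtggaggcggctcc
Herpud1: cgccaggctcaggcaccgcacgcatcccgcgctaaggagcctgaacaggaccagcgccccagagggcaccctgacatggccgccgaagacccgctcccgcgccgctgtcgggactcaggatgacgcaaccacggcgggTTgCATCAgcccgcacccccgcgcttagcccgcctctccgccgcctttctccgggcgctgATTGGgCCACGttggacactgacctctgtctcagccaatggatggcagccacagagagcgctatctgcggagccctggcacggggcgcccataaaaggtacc
In these windows the matches begin 65 bases before the start in Hspa5, 212 and 107 bases before it in Hsp90b1, and 52 bases before it for the ERSE-II of Herpud1.

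ER-associated degradation, which returns misfolded proteins to the proteasome, was mostly higher. Of 29 genes, 25 rose and 1 fell, with a median of 0.86. Derl3, a channel component of that pathway, was near absent in untreated cells and averaged 67.7 ± 5.78 CPM with thapsigargin and 0.252 ± 0.080 CPM without (log2 fold 8.05 ± 0.13 SE, adjusted p = 7.48e-15). Herpud1, a membrane scaffold of the degradation complex, was at 1078, 926, 1038, 1111 and 1136 CPM with thapsigargin, against 35.3, 32.3, 33.3, 34.3 and 33.98 CPM untreated, with all treated libraries above all untreated ones (log2 fold 4.96 ± 0.07 SE, adjusted p = 2.01e-15). Sel1l, the adaptor of the ubiquitin ligase Syvn1, averaged 2136 ± 170.0 CPM with thapsigargin and 220.1 ± 11.5 CPM without, and Syvn1 itself 212 ± 19.5 CPM with thapsigargin and 26.98 ± 5.32 CPM without. Edem1, which trims glycans of misfolded proteins, averaged 478 ± 40.9 CPM with thapsigargin and 65.01 ± 5.72 CPM without. The 1 member lower was the ubiquitin-conjugating enzyme Ube2j2, with a log2 fold of -0.12 (adjusted p = 0.0451) with groups that overlapped. That call was lost with kallisto counts (adjusted p = 0.0826), with the genotype tag (0.0508), without both libraries with conflicting labels (0.0809) and without any 1 of Nrf2-/- thapsigargin replicate 1 (0.0932), Nrf2-/- untreated replicate 2 (0.0576) or WT untreated replicate 2 (0.0553).

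Translocation, glycosylation and COPII transport followed. In this list 37 of 41 genes rose, 30 of them 2-fold or more, 1 fell and 3 did not pass (median 1.59). The KDEL receptor Kdelr3, which retrieves ER residents from the Golgi, averaged 8.58 ± 0.227 CPM with thapsigargin and 0.143 ± 0.059 CPM without (log2 fold 5.87 ± 0.17 SE, adjusted p = 2.07e-12). Sec24d, a COPII coat subunit, was at 373 ± 19.1 CPM with thapsigargin and 15.2 ± 1.52 CPM without. The oligosaccharyltransferase subunits Stt3a and Rpn1 had log2 folds of 2.50 and 2.29. Spcs1, a signal peptidase subunit, was the 1 member lower (-0.20, adjusted p = 0.0219, groups overlapping).

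Among 15 sensors and regulators of the unfolded protein response 12 rose and 1 fell (median 1.12). Atf6 was at 382, 410.0, 391, 398 and 404 CPM with thapsigargin, against 68.9, 66.9, 63.4, 65.2 and 72.6 CPM untreated. Its groups were tight and far apart (log2 fold 2.56 ± 0.05 SE, adjusted p = 5.21e-14). Xbp1, the IRE1 substrate, averaged 379 ± 18.6 CPM with thapsigargin and 101 ± 3.74 CPM without (log2 fold 1.91 ± 0.05 SE, adjusted p = 6.28e-13) and Eif2ak3 (PERK) 309.7 ± 19.5 CPM with thapsigargin and 84.2 ± 0.977 CPM without (log2 fold 1.88 ± 0.05 SE, adjusted p = 9.11e-13). Ern1 (IRE1α) had the smallest log2 fold of the 3 sensors named at the start, at 22.4, 26.4, 22.3, 22.2 and 22.4 CPM with thapsigargin, against 15.9, 15.6, 17.2, 16.1 and 17.7 CPM untreated. The groups did not overlap, and the highest treated value came from WT replicate 2 (log2 fold 0.49 ± 0.07 SE, adjusted p = 2.32e-05). Wfs1, an ER membrane regulator of ATF6, averaged 44.2 ± 5.18 CPM with thapsigargin and 7.05 ± 0.237 CPM without. Creb3l1, an ER-anchored factor of the ATF6 type, stayed low at 0.925 ± 0.305 CPM with thapsigargin and 0.031 ± 0.043 CPM without, with 156 counts in all against 6. Tmbim6, an ER calcium leak protein, fell (log2 fold -0.40 ± 0.06 SE, adjusted p = 2.75e-05). Spliced and unspliced Xbp1 mRNA could not be compared. Among the 4 Xbp1 transcripts in the isoform table, no pair differed by an internal gap of up to 60 bases, searched as the mark of the IRE1 intron.

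**Figure D2:**
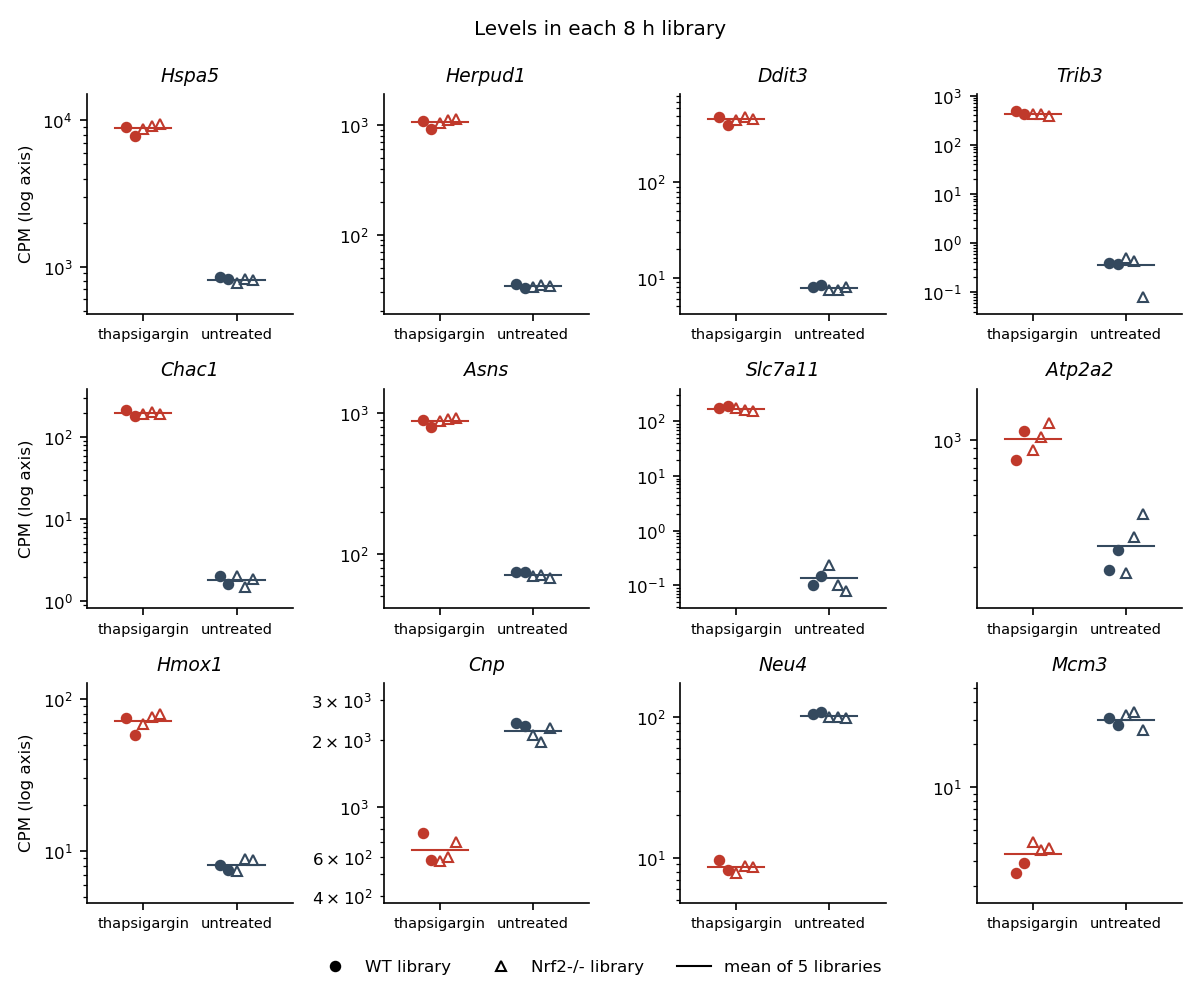
CPM on log axes for 12 genes in each 8 h library, thapsigargin left (red) and untreated right (dark blue), with filled circles for WT, open triangles for Nrf2-/- and a line at the mean of 5 libraries. The groups do not overlap in any panel, and Cnp, Neu4 and Mcm3 are lower with thapsigargin.

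The integrated stress response had the highest median of the lists shown. Of 24 listed regulators and targets 21 rose, 19 of them 2-fold or more, 1 fell and 2 of the eIF2α kinases did not pass (median 3.72). Atf4, whose translation PERK favours, was at 933, 781, 915, 977 and 1033 CPM with thapsigargin, against 211, 216, 212, 217 and 207 CPM untreated. Its groups did not overlap (log2 fold 2.12 ± 0.07 SE, adjusted p = 2.77e-12). Ddit3 (CHOP, a pro-apoptotic factor induced by ATF4; GRCm38 chromosome 10, 127290774 to 127296288) was at 483, 402, 453, 487 and 466 CPM with thapsigargin, against 7.88, 8.30, 7.32, 7.40 and 7.92 CPM untreated. All treated libraries held over 400 CPM and all untreated ones under 9 (log2 fold 5.88 ± 0.07 SE, adjusted p = 1.28e-15). Atf3, a partner of CHOP, averaged 47.9 ± 3.81 CPM with thapsigargin and 0.558 ± 0.084 CPM without (log2 fold 6.41 ± 0.10 SE, adjusted p = 4.34e-15). Ppp1r15a (GADD34), which dephosphorylates eIF2α, was at 198 ± 20.9 CPM with thapsigargin and 9.51 ± 0.553 CPM without.

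Trib3, a pseudokinase that restrains ATF4, was at 489, 416, 413, 414 and 388 CPM with thapsigargin, against 0.383, 0.366, 0.500, 0.434 and 0.080 CPM untreated. The groups were far apart, with 72547 counts over the 5 treated libraries and 69 over the 5 untreated ones, a fitted fold of 1190 (log2 fold 10.21 ± 0.19 SE, adjusted p = 3.83e-12). Chac1, which degrades glutathione, averaged 198 ± 13.4 CPM with thapsigargin and 1.82 ± 0.239 CPM without (log2 fold 6.76 ± 0.09 SE, adjusted p = 2.17e-15). Nupr1, a stress-induced chromatin protein, was at 85.8, 66.6, 88.9, 79.8 and 86.4 CPM with thapsigargin, against 0, 0.073, 0, 0.077 and 0 CPM untreated. The untreated libraries held 6 counts in all, so that its fitted log2 fold of 11.22 ± 0.25 rests on a near-empty group (adjusted p = 9.22e-12). Fgf21, a stress hormone, had 342 counts with thapsigargin and 0 without, at least 125-fold higher when the 5 untreated libraries together are set at 3 counts; the median of the list is the same with Fgf21 at that bound. Eif2ak2 (PKR, the kinase that senses double-stranded RNA) was the 1 member lower (2.43 ± 0.480 CPM with thapsigargin and 6.27 ± 0.404 CPM without).

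ATF4 and CHOP are known to act through a composite site, the CARE, searched here as TGATGNAA on both strands. It was present in 7 of the 22 listed stress regulators with a promoter window (31.8%) against 291 of the 10501 tested genes with one (2.77%) and, by window, 1304 of all 32851 (3.97%), while 0 of the 22 held an ERSE. The windows of Trib3 (chr2:152344011-152344310, minus strand), Chac1 (chr2:119350992-119351291, plus strand), Asns (chr6:7693160-7693459, minus strand) and Slc7a11 (chr3:50443564-50443863, minus strand) are shown because these 4 raised genes are a regulator, enzymes and a transporter. Capitals mark the CARE, which reads TTNCATCA where it lies on the opposite strand.
Trib3: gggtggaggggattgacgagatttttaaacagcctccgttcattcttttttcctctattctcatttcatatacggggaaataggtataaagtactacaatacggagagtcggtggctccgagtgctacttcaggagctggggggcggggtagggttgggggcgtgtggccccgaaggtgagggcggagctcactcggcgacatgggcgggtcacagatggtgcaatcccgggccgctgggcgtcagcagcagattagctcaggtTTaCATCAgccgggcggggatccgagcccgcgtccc
Chac1: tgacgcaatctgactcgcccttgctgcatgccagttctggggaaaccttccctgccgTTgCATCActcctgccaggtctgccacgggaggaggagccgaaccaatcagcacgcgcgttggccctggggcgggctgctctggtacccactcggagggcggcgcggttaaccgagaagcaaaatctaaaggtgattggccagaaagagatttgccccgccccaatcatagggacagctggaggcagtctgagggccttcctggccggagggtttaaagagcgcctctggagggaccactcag
Asns: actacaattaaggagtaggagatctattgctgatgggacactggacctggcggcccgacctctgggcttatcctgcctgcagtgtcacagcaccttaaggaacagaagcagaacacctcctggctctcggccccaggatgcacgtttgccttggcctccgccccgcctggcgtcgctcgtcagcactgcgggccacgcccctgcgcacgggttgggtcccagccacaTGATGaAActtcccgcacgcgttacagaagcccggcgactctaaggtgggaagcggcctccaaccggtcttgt
Slc7a11: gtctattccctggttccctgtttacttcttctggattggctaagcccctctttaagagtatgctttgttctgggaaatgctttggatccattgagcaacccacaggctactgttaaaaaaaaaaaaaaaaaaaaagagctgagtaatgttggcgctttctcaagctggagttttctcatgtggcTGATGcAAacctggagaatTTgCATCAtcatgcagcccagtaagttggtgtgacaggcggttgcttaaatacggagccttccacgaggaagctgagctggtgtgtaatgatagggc
Slc7a11 holds a match on each strand, beginning 66 and 47 bases before the start, while the match of Trib3 lies after the start. The CARE was not particular to the stress regulators. It was in 5 of the 13 cytosolic tRNA synthetases with a window (38.5%), though only these 13 of 20 had one. It was also in 2 of 15 myelin sphingolipid and galactolipid genes (13.3%), a list with more genes lower than higher, and in 0 of 30 cell cycle genes. Of the 13191 protein-coding genes tested, 79.6% had a window.

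Genes of amino acid supply were mostly higher. In the list of serine, one-carbon, proline and asparagine synthesis 15 of 18 genes rose and 2 fell (median 2.45). Asns, asparagine synthetase, was at 898, 794, 876, 903 and 931 CPM with thapsigargin, against 74.2, 74.5, 69.7, 70.7 and 66.97 CPM untreated. Its groups were far apart (log2 fold 3.63 ± 0.06 SE, adjusted p = 1.13e-14). Phgdh, which opens serine synthesis, averaged 558 ± 26.9 CPM with thapsigargin and 36.5 ± 3.37 CPM without, and Cth, which makes cysteine, 91.7 ± 3.78 CPM with thapsigargin and 1.02 ± 0.126 CPM without. The mitochondrial folate enzyme Mthfd1l and the proline enzyme Pycr1 rose by log2 folds of 3.71 and 3.71. The cytosolic folate enzymes were the members lower, Shmt1 with a log2 fold of -0.94 and Mthfd1 with one of -0.21, the second with overlapping groups.

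Of 20 amino acid transporters 15 rose, 12 of them 2-fold or more, and 4 fell (median 1.68). Slc7a11 (xCT, which imports cystine) was at 176, 191, 175, 164 and 155 CPM with thapsigargin, against 0.102, 0.146, 0.237, 0.102 and 0.080 CPM untreated. The untreated libraries held 26 counts of it in all, so its SE is likely too small (log2 fold 10.30 ± 0.13 SE, adjusted p = 1.28e-15). Slc7a3, a transporter of cationic amino acids, averaged 58.95 ± 4.31 CPM with thapsigargin and 0.886 ± 0.324 CPM without. Slc7a5 (LAT1, for large neutral amino acids) was at 858 ± 73.9 CPM with thapsigargin and 25.9 ± 1.59 CPM without, and the glycine transporter Slc6a9 at 131 ± 4.73 CPM with thapsigargin and 5.35 ± 0.602 CPM without. Lower were Slc43a2, another carrier of large neutral amino acids (-1.29), Slc38a3, which carries glutamine (-0.56), and 2 more with log2 folds above -0.40.

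The tRNA synthetases load amino acids onto tRNA, with separate sets in the cytosol and mitochondria. Of 20 cytosolic enzymes 19 rose, 15 of them 2-fold or more (median 1.76), with Nars at 1025 ± 77.6 CPM with thapsigargin and 180.2 ± 2.45 CPM without, Eprs at 1839 ± 39.8 CPM with thapsigargin and 333 ± 9.61 CPM without, Gars at 996 ± 53.4 CPM with thapsigargin and 181 ± 5.07 CPM without, and Lars at 668 ± 22.7 CPM with thapsigargin and 126 ± 4.20 CPM without. Qars was the 1 cytosolic member lower (-0.37, adjusted p = 0.000154, groups overlapping). Of 17 mitochondrial enzymes 7 rose and 6 fell (median 0.11), from Ears2 at 1.17, the 1 past 2-fold, to Aars2 at -0.63. The difference between the compartments was not tested.

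Calcium genes moved both ways: of 29 tested, 12 rose and 11 fell (median 0.11), shares near those of all genes. Atp2a2 (SERCA2, a target of the drug) was at 781, 1114, 878, 1039 and 1241 CPM with thapsigargin, against 193, 249, 186, 292 and 394 CPM untreated. Its spread was wide in both groups, which did not overlap (log2 fold 1.95 ± 0.22 SE, adjusted p = 6.81e-05). Atp2a3 (SERCA3) had 273 counts with thapsigargin and 3 without, a ratio per total count of 95.4 with a 95% exact counting interval of 32.3 to 465. Atp2b1, a plasma membrane calcium pump, averaged 391 ± 8.70 CPM with thapsigargin and 95.9 ± 5.77 CPM without.

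The inositol trisphosphate receptors, which release ER calcium, were called in opposite directions for Itpr1 and Itpr2, while Itpr3 was not called. Itpr1 was at 104, 107, 118, 108 and 89.7 CPM with thapsigargin, against 12.8, 11.3, 13.5, 13.2 and 11.1 CPM untreated (log2 fold 3.08 ± 0.08 SE, adjusted p = 8.13e-13). Itpr2 was at 154, 155, 143, 131 and 133 CPM with thapsigargin, against 481, 498, 478, 487 and 645 CPM untreated, all treated libraries below all untreated ones (log2 fold -1.85 ± 0.09 SE, adjusted p = 1.01e-09). The ryanodine receptor Ryr2 averaged 11.7 ± 2.46 CPM with thapsigargin and 2.11 ± 0.253 CPM without. Among store-operated entry genes Stim1, Stim2, Orai1 and Orai3 were lower and Orai2 and Saraf, an inhibitor of this entry, were higher. Stim2, a sensor of ER calcium, was at 39.6, 32.4, 35.5, 34.2 and 37.1 CPM with thapsigargin, against 46.4, 47.8, 48.9, 46.95 and 42.4 CPM untreated (log2 fold -0.38 ± 0.06 SE, adjusted p = 0.000104). The channel Orai1 was at 8.01 ± 0.367 CPM with thapsigargin and 12.4 ± 1.51 CPM without. Slc8b1, the mitochondrial sodium-calcium exchanger, was at 1.74 ± 0.474 CPM with thapsigargin and 3.83 ± 0.264 CPM without.

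Cell death and p53 genes showed no common direction, with 11 of 29 higher, 10 lower and a median of 0.07. Hrk, a BH3-only activator of apoptosis best known in neurons, averaged 39.9 ± 3.63 CPM with thapsigargin and 0.199 ± 0.127 CPM without (log2 fold 7.61 ± 0.21 SE, adjusted p = 2.31e-11). Bbc3 (PUMA), a further BH3-only gene, was at 30.9, 26.2, 28.9, 32.5 and 34.2 CPM with thapsigargin, against 7.57, 7.06, 6.87, 7.84 and 6.54 CPM untreated, without overlap (log2 fold 2.09 ± 0.08 SE, adjusted p = 3.96e-11). The cell cycle inhibitor Cdkn1a averaged 67.8 ± 4.35 CPM with thapsigargin and 16.7 ± 1.62 CPM without. Trp53 itself was at 20.9 ± 4.58 CPM with thapsigargin and 8.84 ± 4.20 CPM without, with overlapping groups (adjusted p = 0.0042). Tnfrsf10b, a death receptor that CHOP is known to induce in human cells, was at 2.04 ± 0.387 CPM with thapsigargin and 1.27 ± 0.483 CPM without, with overlapping groups and an adjusted p of 0.016 that missed the threshold without Nrf2-/- untreated replicate 1, WT untreated replicate 1 or 2, or WT thapsigargin replicate 2 (0.0557 to 0.0627). Among the genes that fell was the executioner caspase Casp6, at 3.39 ± 0.431 CPM with thapsigargin and 12.4 ± 0.888 CPM without (log2 fold -1.87 ± 0.09 SE, adjusted p = 3.3e-10). Bok, a BAX-type gene of the ER, was at 2.48 ± 0.160 CPM with thapsigargin and 5.76 ± 0.751 CPM without, and Trp53inp1 at 148 ± 3.96 CPM with thapsigargin and 407 ± 22.7 CPM without. Casp12, the ER-linked caspase of mice, was too low to be tested, with 6 counts over the treated 8 h libraries and 21 over the untreated ones.

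In the NRF2 target list, of interest because of the genotype, 7 of 22 genes rose and 12 fell (median -0.25). The members higher were Slc7a11, already given, Hmox1 (heme oxygenase), Blvrb (biliverdin reductase), Sqstm1 (the autophagy receptor p62) and 3 more. Hmox1 was at 75.1, 57.7, 68.8, 76.2 and 80.1 CPM with thapsigargin, against 8.13, 7.54, 7.37, 8.88 and 8.74 CPM untreated, without overlap (log2 fold 3.13 ± 0.09 SE, adjusted p = 9.27e-13). Blvrb averaged 6.19 ± 0.672 CPM with thapsigargin and 1.63 ± 0.346 CPM without, and Sqstm1 343 ± 29.9 CPM with thapsigargin and 178 ± 10.9 CPM without. Members lower included Taldo1 of the pentose phosphate pathway (-1.12), peroxiredoxin Prdx1 (-0.98) and catalase Cat (-0.65).

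Of the cytosolic heat shock genes 6 of 17 rose and 7 fell (median -0.02). Hspa8 (HSC70), the constitutive cytosolic HSP70, was at 1283, 1149.8, 1214, 1192 and 1263 CPM with thapsigargin, against 3034, 2977, 2910.4, 2812 and 2646 CPM untreated. Every treated library lay below every untreated one (log2 fold -1.24 ± 0.06 SE, adjusted p = 1.48e-10). Its partners Hsph1, Dnaja1 and Dnajb1 fell, with log2 folds of -0.98, -0.91 and -0.82. Bag3 was higher at a low level, 0.500 ± 0.089 CPM with thapsigargin and 0.072 ± 0.067 CPM without.

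Lipid synthesis genes fell as a group. Of 26 genes of sterol synthesis and uptake 24 fell, 17 of them 2-fold or more, and 0 rose (median -1.34), and all 14 genes of fatty acid synthesis fell (median -1.08). Acat2, which joins acetyl-CoA units at the entry of the sterol pathway, was at 105, 82.1, 107, 108 and 118 CPM with thapsigargin, against 869.9, 875, 821, 819.8 and 787 CPM untreated. The groups were far apart (log2 fold -3.01 ± 0.09 SE, adjusted p = 1.24e-12). Nsdhl, Mvk and Hsd17b7, further enzymes of the pathway, had log2 folds of -2.56, -2.38 and -2.28. In fatty acid synthesis, the desaturase Scd1 averaged 237 ± 15.97 CPM with thapsigargin and 1204 ± 37.6 CPM without (log2 fold -2.35 ± 0.06 SE, adjusted p = 3.02e-13), Acly, which supplies cytosolic acetyl-CoA, 448 ± 21.03 CPM with thapsigargin and 1813 ± 56.8 CPM without, and Acss2 91.04 ± 6.54 CPM with thapsigargin and 416 ± 10.2 CPM without.

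Myelin and differentiation genes fell too. Of 19 structural myelin genes 14 fell, 11 of them 2-fold or more, 4 did not pass and 1 rose (median -1.04). In bulk samples, fewer cells of a type and less RNA per cell cannot be told apart. Cnp, of the myelin cytoplasm, was at 767, 577, 572, 597 and 697 CPM with thapsigargin, against 2376, 2295, 2104, 1954 and 2264 CPM untreated. All treated values lay below all untreated ones, and the highest treated value came from WT replicate 1 (log2 fold -1.77 ± 0.08 SE, adjusted p = 2.09e-10). Mbp, which compacts myelin, averaged 85.9 ± 13.6 CPM with thapsigargin and 325 ± 37.9 CPM without. Mobp, a further compacting protein, averaged 1.97 ± 0.556 CPM with thapsigargin and 7.94 ± 2.16 CPM without. Mog, of the outer myelin surface, was at 2.94, 1.91, 2.40, 1.67 and 2.69 CPM with thapsigargin, against 23.3, 21.6, 21.9, 17.2 and 20.6 CPM untreated (log2 fold -3.17 ± 0.14 SE, adjusted p = 8.56e-11). The 1 member higher was Ndrg1, which is also known as a stress-induced gene, at 4.58 ± 0.555 CPM with thapsigargin and 0.709 ± 0.172 CPM without.

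All 13 tested markers of committed, newly differentiating oligodendrocytes fell, 10 of them 2-fold or more (median -1.52). Neu4, a sialidase, was at 9.72, 8.17, 7.83, 8.74 and 8.65 CPM with thapsigargin, against 105, 108, 99.2, 101 and 98.2 CPM untreated. The groups did not overlap (log2 fold -3.57 ± 0.06 SE, adjusted p = 1.21e-14, 11.9-fold lower). Bmp4, a secreted growth factor, averaged 7.75 ± 0.735 CPM with thapsigargin and 54.2 ± 6.09 CPM without, Rnf122 26.1 ± 0.443 CPM with thapsigargin and 120.3 ± 9.52 CPM without, and the choline phosphodiesterase Enpp6 133 ± 21.8 CPM with thapsigargin and 604 ± 72.96 CPM without. Gpr17, the receptor that marks this stage, was at 853 ± 43.96 CPM with thapsigargin and 2134 ± 126 CPM without. Of 16 myelin sphingolipid and galactolipid genes 9 fell and 4 rose (median -0.36), with Ugt8a, which makes galactosylceramide, at 343 ± 35.8 CPM with thapsigargin and 1394 ± 81.00 CPM without, and Fa2h, which hydroxylates its fatty acid, at 11.5 ± 2.66 CPM with thapsigargin and 42.8 ± 8.72 CPM without.

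Precursor markers were mixed (4 of 18 higher, 9 lower, median -0.32). Pdgfra, the mitogen receptor of the precursors, was at 398, 496, 487, 541 and 488 CPM with thapsigargin, against 496, 457, 514, 630.1 and 522 CPM untreated. The groups overlapped, and the difference did not pass (log2 fold -0.12 ± 0.07 SE, adjusted p = 0.172); without the 2 libraries that stand apart the log2 fold was -0.25 and passed (adjusted p = 0.00409), as it did without either of them alone (-0.21 and -0.18) and with no filter on low counts (-0.19). The proteoglycan Cspg4 (NG2) was higher, 270.1 ± 40.2 CPM with thapsigargin and 182 ± 29.5 CPM without, with overlapping groups (adjusted p = 0.00044). The adhesion protein Cntn1 and the matrix protein Tnr fell (-1.18 and -1.15).

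Of 19 lineage transcription factors 10 fell and 5 rose (median -0.57). Olig2, which specifies the lineage, was at 285, 262, 281, 323 and 328 CPM with thapsigargin, against 515, 493, 492, 550.2 and 466 CPM untreated (log2 fold -0.77 ± 0.07 SE, adjusted p = 1.32e-07) and Sox10, which drives myelin genes, averaged 444 ± 45.8 CPM with thapsigargin and 713 ± 25.8 CPM without (log2 fold -0.69 ± 0.07 SE, adjusted p = 6.87e-07). Olig1 averaged 239.6 ± 22.7 CPM with thapsigargin and 630.1 ± 43.6 CPM without, and Sox8 131 ± 19.4 CPM with thapsigargin and 513 ± 92.5 CPM without. Tcf7l2, a Wnt effector needed for differentiation, averaged 22.8 ± 8.80 CPM with thapsigargin and 65.7 ± 30.4 CPM without, and Sox5 2.81 ± 0.642 CPM with thapsigargin and 12.5 ± 1.45 CPM without. St18, a zinc finger factor, was at 1.82, 1.07, 1.70, 1.17 and 1.73 CPM with thapsigargin, against 21.5, 22.9, 19.2, 18.4 and 24.6 CPM untreated (log2 fold -3.83 ± 0.15 SE, adjusted p = 3.17e-11). Myrf, the activator of myelin genes at the end of differentiation, was at 172, 264, 170.4, 130.1 and 174 CPM with thapsigargin, against 220.5, 236, 206, 248 and 436 CPM untreated. Its highest untreated value came from the library labelled Nrf2-/- replicate 3, and the difference did not pass (log2 fold -0.57 ± 0.27 SE, adjusted p = 0.0968), whereas without the 2 libraries that stand apart it did (-0.52, adjusted p = 0.0031), as it did without WT thapsigargin replicate 2 alone (-0.79, adjusted p = 0.0288) and with all 50 libraries in 1 fit (-0.50, adjusted p = 0.0155). Factors that rose included Zfp536, at 40.2 ± 6.20 CPM with thapsigargin and 11.2 ± 2.15 CPM without, and Prox1, at 70.3 ± 15.3 CPM with thapsigargin and 22.6 ± 6.13 CPM without.

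Inhibitors of differentiation, the Notch, ID and SOXC genes, were more often higher (11 of 19) than lower (5), with a small median of 0.25. Past 2-fold were 4 higher and 2 lower genes. Groups did not overlap for 6 genes above and 5 below, and 8 to 11 genes were called higher over the alternative fits. Id2, which blocks bHLH factors, was at 71.7, 73.8, 78.6, 88.03 and 78.3 CPM with thapsigargin, against 19.5, 22.3, 21.2, 19.9 and 17.9 CPM untreated (log2 fold 1.95 ± 0.07 SE, adjusted p = 2e-11). Id3 averaged 51.9 ± 5.74 CPM with thapsigargin and 15.9 ± 2.24 CPM without, Hes1, a Notch target, 1.98 ± 0.229 CPM with thapsigargin and 0.402 ± 0.111 CPM without, and the Notch-type repressor Hey2 28.97 ± 2.996 CPM with thapsigargin and 3.76 ± 0.385 CPM without. In contrast, the Notch ligand Dll3 averaged 9.68 ± 1.36 CPM with thapsigargin and 59.6 ± 7.87 CPM without, and the Notch target Hes5 1.38 ± 0.158 CPM with thapsigargin and 3.40 ± 0.297 CPM without.

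Cell cycle genes fell nearly throughout: 33 of 36, of which 30 by 2-fold or more (median -1.77). Mcm3, a subunit of the replicative helicase, was at 2.48, 2.93, 4.08, 3.60 and 3.69 CPM with thapsigargin, against 30.9, 27.5, 32.1, 33.9 and 25.2 CPM untreated. The groups did not overlap (log2 fold -3.17 ± 0.11 SE, adjusted p = 1.26e-11, 8.99-fold lower). Mki67, the proliferation marker, was at 63.4 ± 11.4 CPM with thapsigargin and 230.4 ± 31.3 CPM without, Mcm5 at 7.94 ± 1.53 CPM with thapsigargin and 52.9 ± 3.81 CPM without, and the cell cycle factor E2f8 at 0.860 ± 0.136 CPM with thapsigargin and 6.31 ± 1.87 CPM without. The 3 members higher were the D cyclins, which start G1: Ccnd1 at 261 ± 20.9 CPM with thapsigargin and 131 ± 11.6 CPM without, Ccnd2 at 3.87 ± 0.837 CPM with thapsigargin and 0.702 ± 0.089 CPM without, and Ccnd3 at 58.5 ± 8.06 CPM with thapsigargin and 26.4 ± 3.22 CPM without.

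Immediate early genes, the fast transcription factors of stimulated cells, were still raised at 8 h (19 of 27 higher, 3 lower, median 1.00). The phosphatase gene Dusp1 averaged 8.79 ± 1.70 CPM with thapsigargin and 1.18 ± 0.357 CPM without, Fosl2 22.5 ± 1.67 CPM with thapsigargin and 1.53 ± 0.125 CPM without, Klf4 2.17 ± 0.436 CPM with thapsigargin and 0.143 ± 0.057 CPM without, and Nr4a2 10.3 ± 1.26 CPM with thapsigargin and 1.27 ± 0.110 CPM without. Fos was at 119, 97.2, 115, 123 and 126 CPM with thapsigargin, against 57.7, 54.5, 51.98, 63.6 and 61.5 CPM untreated, with no overlap (log2 fold 1.00 ± 0.07 SE, adjusted p = 1.52e-08). Of the 3 lower, Nr4a1 was at 7.34 ± 0.943 CPM with thapsigargin and 10.2 ± 1.404 CPM without with overlapping groups (log2 fold -0.48 ± 0.10 SE, adjusted p = 0.000882).

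Among other lists, cytosolic ribosomal protein genes shifted slightly upward (47 of 74 higher, 2 lower, median 0.21); many have near-identical pseudogenes with which reads could be shared, and 20 were higher without the 3 libraries whose genotype is in doubt, 25 with kallisto counts, and 29 and 31 without Nrf2-/- thapsigargin replicate 2 or Nrf2-/- untreated replicate 3. Glycolysis and hypoxia-type genes were mostly lower (19 of 28, 8 higher, median -0.44), Tpi1 at -1.57, while the hexokinase Hk2 (2.42) and the enolase Eno2 (2.43) rose. Interferon-stimulated genes were lower in 12 of 20 and higher in 3 (median -0.40), with the GTPase Irgm1 at 13.8 ± 1.30 CPM with thapsigargin and 68.1 ± 5.23 CPM without and, higher, the MHC gene H2-K1, which has close copies, at 22.8 ± 2.99 CPM with thapsigargin and 7.38 ± 0.938 CPM without. Autophagy and lysosome genes split 14 higher and 10 lower of 30 (median 0.00), with Atg13, of the initiating kinase complex, at 118 ± 7.47 CPM with thapsigargin and 30.2 ± 1.78 CPM without, and Tfeb, the lysosomal factor, at 8.09 ± 0.987 CPM with thapsigargin and 28.3 ± 1.86 CPM without. Of the 11 tested NF-kB and chemokine genes 6 rose and 3 fell (median 0.32), Nfkbiz, an inducible IκB protein, at 9.82 ± 1.09 CPM with thapsigargin and 3.49 ± 0.141 CPM without. Of 33 glutamate receptor and ion channel genes 12 rose and 11 fell (median -0.05), the sodium channel Scn3a at 7.44 ± 2.70 CPM with thapsigargin and 42.3 ± 15.6 CPM without, and the potassium channel Kcna1 at 2.87 ± 0.317 CPM with thapsigargin and 11.2 ± 1.06 CPM without. Of the 12 tested mitochondrially encoded transcripts 0 rose and 3 fell (median -0.22). Of 5 tested genes described in mouse cells as IRE1 decay targets 4 fell and 0 rose (median -0.78), Bloc1s1 among them (log2 fold -0.78 ± 0.14 SE, adjusted p = 0.000268). This list is short and partly near the floor: 3 of its 6 genes stayed under 1 CPM in all 10 libraries. Whether IRE1 decay took part was not tested.

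Markers of other neural cells moved with the treatment as well. The 10 astrocyte markers summed to 169 to 192 CPM with thapsigargin and 520 to 581 CPM without, with 2 of 8 tested higher and 5 lower: Aldoc was at 44.3 ± 4.79 CPM with thapsigargin and 249.7 ± 10.8 CPM without, S100b at 64.1 ± 8.39 CPM with thapsigargin and 263 ± 17.5 CPM without and, higher, the glutamate transporter Slc1a3 at 52.3 ± 3.03 CPM with thapsigargin and 14.9 ± 0.896 CPM without. Of the defining markers, Gfap was at 2.06 ± 1.19 CPM with thapsigargin and 4.02 ± 1.24 CPM without. Aqp4 was at 0.335 ± 0.224 CPM with thapsigargin and 1.16 ± 0.455 CPM without. Both were lower with overlapping groups; without the 2 libraries that stand apart Gfap missed the threshold (adjusted p = 0.052). The 11 neuronal markers summed to 969 to 1055 CPM with thapsigargin and 1595 to 1689 CPM without, most of it Map2 at 855 ± 43.3 CPM with thapsigargin and 1542 ± 40.7 CPM without; 6 of 8 tested rose and 2 fell, with Gad1, of GABA synthesis, at 2.88 ± 0.538 CPM with thapsigargin and 0.091 ± 0.065 CPM without, Snap25 at 17.2 ± 2.06 CPM with thapsigargin and 6.84 ± 1.01 CPM without, and Syt1, of synaptic vesicles, at 1.76 ± 0.177 CPM with thapsigargin and 8.42 ± 1.86 CPM without. The part of other cells in the results above was not tested.

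The 10 genes with the highest log2 fold among those averaging at least 5 CPM over the 10 libraries were Nupr1, Trim66, Slc7a11, Trib3, Cass4, Derl3, Scg2, Hrk, Adamts15 and Chac1. Trim66, a chromatin reader of the TRIM family, was at 119.9, 169, 135, 131 and 132 CPM with thapsigargin, against 0.102, 0.073, 0.026, 0.051 and 0.133 CPM untreated. The untreated libraries held 15 counts in all against 23554 with thapsigargin (log2 fold 10.74 ± 0.18 SE, adjusted p = 4.41e-14). Cass4, a focal adhesion scaffold, averaged 15.01 ± 1.18 CPM with thapsigargin and 0.020 ± 0.032 CPM without, with 4 counts in untreated cells. Scg2, a secretory granule protein, averaged 82.1 ± 13.9 CPM with thapsigargin and 0.391 ± 0.206 CPM without, and Adamts15, a secreted metalloprotease, 27.8 ± 2.62 CPM with thapsigargin and 0.163 ± 0.088 CPM without.

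The 10 with the lowest log2 fold were Fam205a1, Alox5, Plekhf1, Kif19a, Sema4a, Myo18b, Nfe2l3, Tns1, St18 and Pla2g3. Alox5, the 5-lipoxygenase that begins leukotriene synthesis, was at 0.257, 0.215, 0.264, 0.614 and 0.499 CPM with thapsigargin, against 10.4, 9.91, 10.3, 7.30 and 10.4 CPM untreated. All treated values lay below all untreated ones (log2 fold -4.72 ± 0.22 SE, adjusted p = 2.57e-10). Fam205a1, which belongs to a family of close copies and is therefore uncertain, averaged 0.408 ± 0.111 CPM with thapsigargin and 12.8 ± 2.94 CPM without. Kif19a, a kinesin, averaged 2.66 ± 0.414 CPM with thapsigargin and 66.6 ± 8.17 CPM without, the endosomal protein Plekhf1 0.856 ± 0.122 CPM with thapsigargin and 22.4 ± 2.07 CPM without, Sema4a, a guidance protein, 0.586 ± 0.158 CPM with thapsigargin and 13.5 ± 1.27 CPM without, and the CNC factor Nfe2l3, a relative of NRF2, 2.26 ± 0.293 CPM with thapsigargin and 42.5 ± 4.40 CPM without. Tns1, a focal adhesion protein, was at 1.20 ± 0.415 CPM with thapsigargin and 21.2 ± 9.73 CPM without, and Pla2g3, a secreted phospholipase, at 1.31 ± 0.248 CPM with thapsigargin and 16.7 ± 0.961 CPM without.

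Pooling the genotypes rests on a like response in both, and this was tested directly. In WT cells alone 8334 of 15046 genes passed (55.4%) and in Nrf2-/- cells alone 9117 (60.6%); 7433 passed in both, 89.2% of the WT calls and 81.5% of the Nrf2-/- calls, all with the same direction. The genotype by treatment term passed for 0 genes (0%) in edgeR and 0 in DESeq2. At an unadjusted p under 0.05 stood 590 and 571 genes, where 5% of the genes tested is 752. The unadjusted count moved widely with the libraries used. It ran from 228 with the genotype tag to 1376 with all 50 libraries in 1 fit and 2826 without WT thapsigargin replicate 1. In each of these fits 0 genes were past the adjusted threshold. A missed threshold does not show equal responses, and the intervals give roughly the size left. They are normal approximations from the SE and are likely too narrow with so few libraries. For Ddit3 the log2 response was 5.96 in Nrf2-/- cells and 5.77 in WT cells, a difference of 0.18 (95% interval -0.06 to 0.43). For Hspa5 the difference was 0.18 (-0.06 to 0.42), for Hmox1 0.09 (-0.25 to 0.42), for Cnp 0.04 (-0.30 to 0.37), and for Slc7a11, whose untreated counts are few, -0.31 (-1.20 to 0.58). For Mcm3 the response was -3.002 in Nrf2-/- cells and -3.43 in WT cells, a difference of 0.43 (0.03 to 0.83) with an edgeR adjusted p of 0.828. A wider interval could include 0 for this gene. The genotype of 3 of the 10 libraries is in doubt, as described above, which bears on this comparison.

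**Figure D3:**
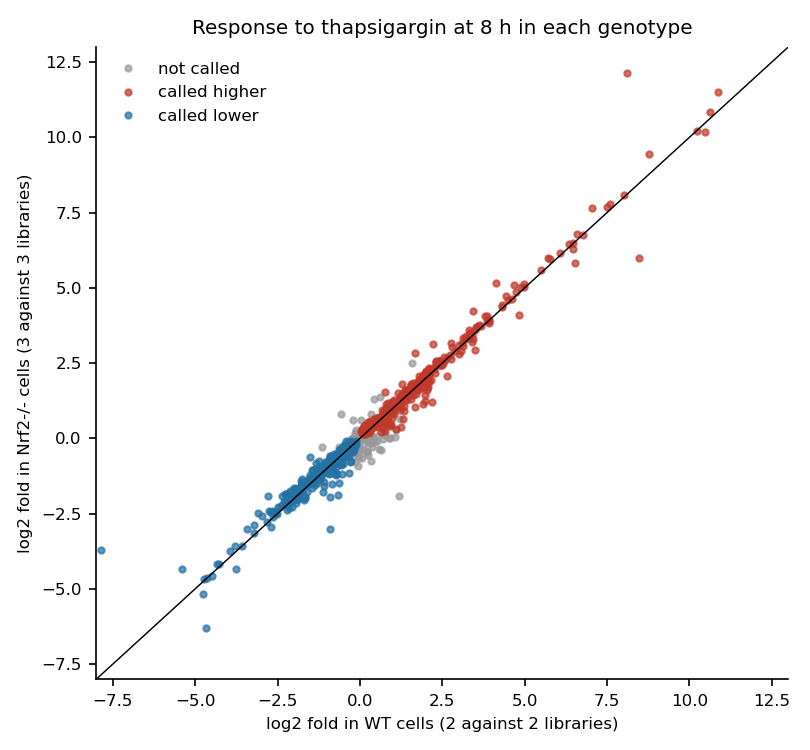
Log2 fold of thapsigargin over untreated cells at 8 h in WT cells (horizontal axis, 2 against 2 libraries) and in Nrf2-/- cells (vertical axis, 3 against 3) for 758 tested genes of the lists and of the named genes. Each point is 1 gene, coloured by its pooled call, and the line marks equal responses; 0 of 15046 genes passed the test of the difference.

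The response at 8 h was set against that of the 1 h libraries, which have their own untreated controls (2 WT and 3 Nrf2-/- libraries in each of 4 groups). At 1 h thapsigargin changed 3521 of 15590 genes (22.6%), 178 of them by 2-fold or more (1.14%), in a fit of 20 libraries; 12% of the genes were called higher and 10.5% lower. The response differed between the hours for 9244 genes (59.3%), 4432 of them more positive at 8 h (28.4%) and 4812 more negative (30.9%). Of 3448 genes changed 2-fold or more at 8 h, 538 were called in that direction at 1 h and 151 in the other direction. These counts are read against the 22.6% of all genes called at 1 h. Of the same 3448 genes, 3164 were called as different between hours, against 59.3% of all genes.

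Immediate early genes were called higher at 1 h in 25 of 27 (median 1.31). By the test of the difference, the log2 fold at 8 h was called below that at 1 h for 12 of them and above it for 10. Folds given at 8 h are those of the fit of 10 libraries. Folds at 1 h and differences between hours come from the fit of 20 libraries, so these values need not add up exactly. Nr4a1 had a log2 fold of 2.96 ± 0.08 (SE, as in the other folds given here) at 1 h and -0.48 ± 0.10 at 8 h, a difference of -3.48 ± 0.12 (edgeR adjusted p = 3.19e-17), and Klf10 and Klf6 likewise turned (differences of -1.75 ± 0.12 and -1.32 ± 0.12). Of the stress regulators 12 of 24 were already higher at 1 h (median 0.29), among them Ddit3 at 3.21 ± 0.12 and Atf3 at 2.85 ± 0.23. Among ER chaperones 17 of 30 were higher at 1 h (median 0.26), Hspa5 at 1.00 ± 0.05. Xbp1 was at 1.70 ± 0.07 at 1 h and 1.91 ± 0.05 at 8 h, and the difference between hours did not pass (0.17 ± 0.10, adjusted p = 0.142).

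Of 20 cytosolic tRNA synthetases 1 was higher and 3 lower at 1 h (median -0.04), and Asns stood at -0.07 ± 0.05. Trib3, Slc7a11, Trim66, Hrk and Cth did not pass at 1 h and differed between hours by 9.83 ± 0.35, 10.14 ± 0.43, 10.26 ± 0.78, 7.34 ± 0.50 and 6.73 ± 0.22 on the log2 scale, while Nupr1 differed by 8.42 ± 1.78 (adjusted p = 0.000341). Among called genes averaging at least 5 CPM, the 6 with the most negative difference were Plekhf1 (-4.70 ± 0.12), Fam205a1 (-4.64 ± 0.27), Kif19a (-4.61 ± 0.11), Alox5 (-4.48 ± 0.28), Sema4a (-4.46 ± 0.17) and Myo18b (-4.34 ± 0.16), and none of the 6 passed at 1 h. Sterol genes were more often higher (9 of 26) than lower (1) at 1 h, while at 8 h 24 of 26 were lower. For 24 the log2 fold was called more negative at 8 h than at 1 h. Cell cycle genes had a median of -0.13 at 1 h, with 6 of 36 lower.

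**Figure D4:**
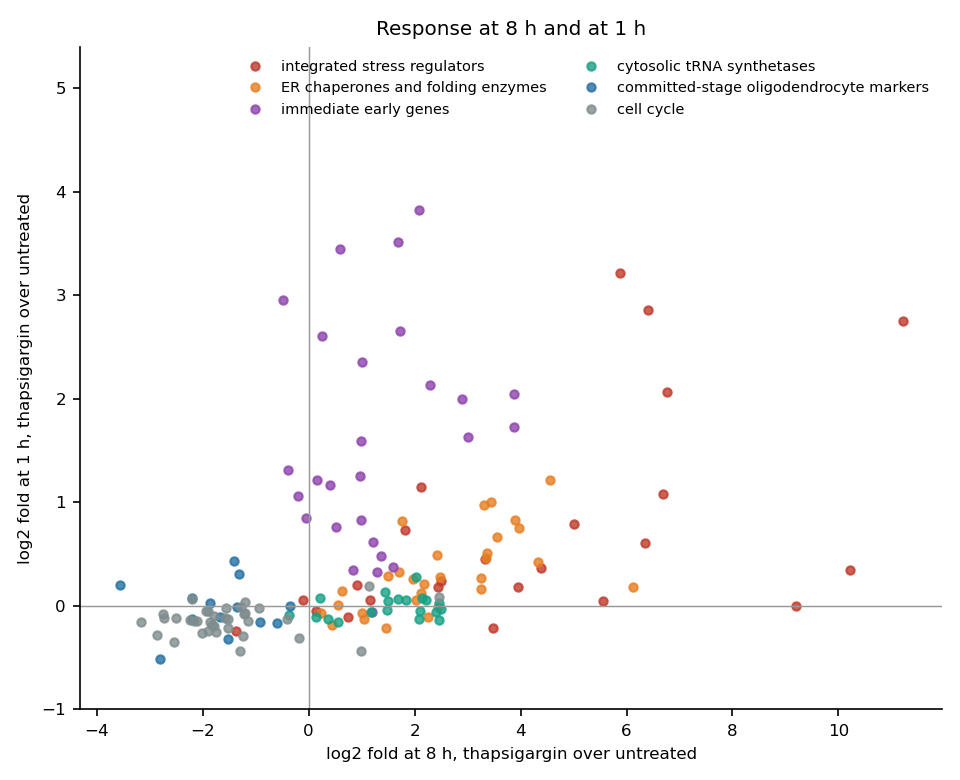
Log2 fold of thapsigargin over untreated cells at 8 h (horizontal axis, fit of 10 libraries) and at 1 h (vertical axis, fit of 20 libraries) for the tested members of 6 gene lists. Immediate early genes lie high on the vertical axis, most tRNA synthetases, committed-stage and cell cycle genes lie near 0 on it, and the stress regulators spread along the horizontal axis.

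Across the whole series, levels were compared as CPM of the library total, without TMM scaling. Of 52 named genes, 25 stood higher in all 5 thapsigargin 8 h libraries than in any of the other 45, 15 stood lower and 12 overlapped. Over all 15046 tested genes these shares were 11.3% higher and 9.85% lower. The 10 highest and 10 lowest genes, picked for groups that did not overlap at 8 h, supply 9 of the 25 and 10 of the 15, and among the other 32 genes, chosen with earlier results known, 16 stood higher and 5 lower, so the counts are a description of these genes only. Hspa5 was at 7863 to 8806 in these libraries, and the next highest value, 1148, came from WT thapsigargin at 1 h. Ddit3 was at 405 to 476 against at most 57.0, also in WT cells after 1 h of thapsigargin. The highest value of Trib3 elsewhere was 4.16, in WT cells after 8 h of IFN-γ. Cnp lay at 557 to 755 in the treated 8 h libraries, under every other library, where it ran from 1254 in Nrf2-/- cells after 1 h of thapsigargin to 4181 in WT cells after 48 h of IFN-γ. Genes that overlapped with other libraries included Jun, Fos, Bbc3, Pdgfra, Gpr17 and Ern1. Bbc3, at 26.3 to 30.4, was exceeded in untreated WT cells at 48 h (51.8), and Casp12 reached 57.8 in Nrf2-/- cells after 24 h of IFN-γ.

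**Figure D5:**
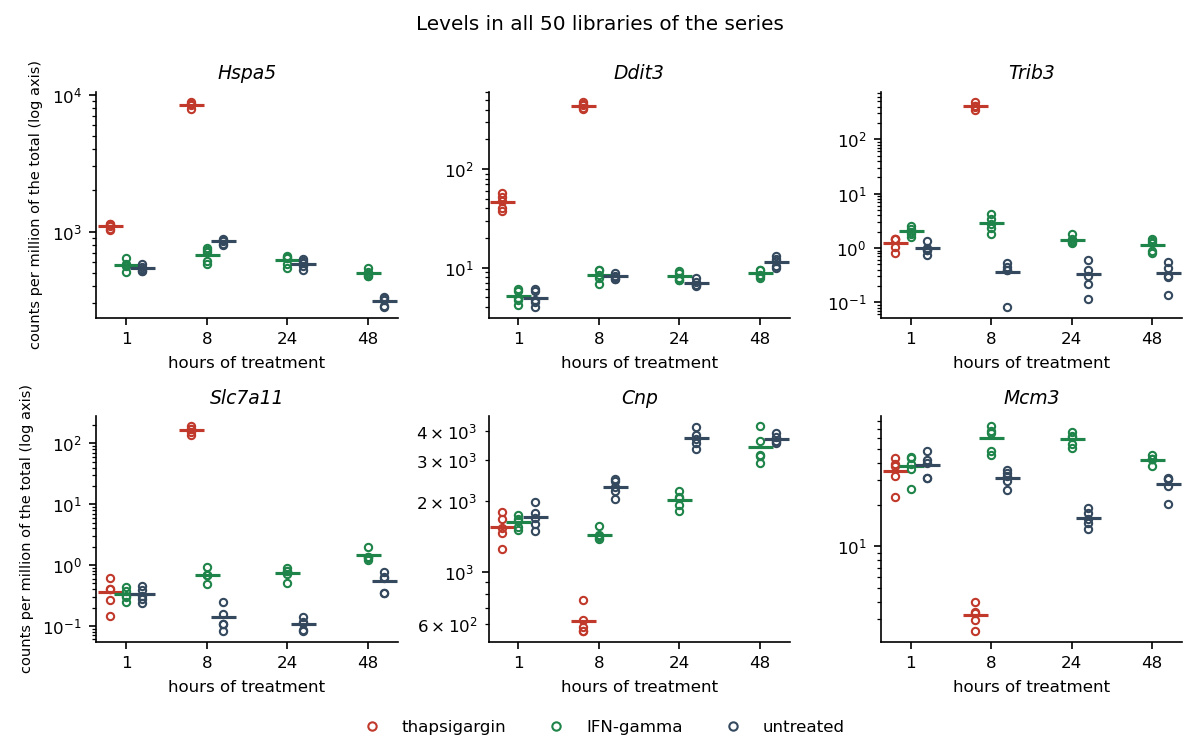
CPM of the library total, without TMM scaling (log axes), for 6 genes in all 50 libraries, by hours of treatment, with thapsigargin in red, IFN-γ in green and untreated cells in dark blue; each circle is 1 library and each bar a group's mean over both genotypes. Hspa5, Ddit3, Trib3 and Slc7a11 are highest, and Cnp and Mcm3 lowest, in the thapsigargin libraries at 8 h.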

How the data were processed

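Bulk RNA-seq of 50 libraries was deposited as a table of whole-number counts per gene and a table of estimated counts per transcript. The submitters' processing notes name STAR, featureCounts, kallisto and edgeR without versions; which tool made which of the authors' deposited count tables, the strand setting and the genome build are not stated by any label or header here. Genes were named and placed with GENCODE M21 (GRCm38) by gene ID: 38872 of 39056 matched without the version. Libraries were grouped by the treatment and genotype in the title and by hour. The deposited counts were filtered (filterByExpr, minimum count 10, minimum total 15), TMM-scaled and tested with edgeR 4.0.16 (quasi-likelihood, robust) in R 4.3.3, with genotype as a term, and Benjamini-Hochberg adjustment over all tested genes at 0.05. The genotype by treatment term used the same 10 libraries, and the difference between hours used 20. Estimated counts were summed per gene, rounded to whole numbers and used only as an alternative.

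The members, gene lists and rules were chosen with earlier results of these data known. Named genes were core stress and lineage genes, the 10 highest and 10 lowest called genes without overlap and a mean of at least 5 CPM, up to 4 called members per list and direction, and up to 6 genes per direction for each difference. No replicate pair agreed within sampling noise (chi-square per degree of freedom 13.5 to 64.3), and 0 sample columns were unmapped. The scripts were tested on simulated data. A few genes are not reported here by name. Alternatives were other scaling, no filter, DESeq2 1.42.0, the genotype tag, left-out libraries, no genotype term, kallisto counts and all 50 libraries. Counting intervals cover counting error only.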

Additional observations from a re-analysis of the deposited data

Results flagged for a closer look

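Within the thapsigargin or the untreated group, 1 library lay far from the other 4 for some genes: 31 of 347 gene and group pairs had a gap to the nearest library, as a share of the group's range, above the Dixon critical value of 0.71. Chance gives about 1 in 20. The shares are given in parentheses. Thapsigargin WT replicate 2 was the highest for Ern1 (0.955), Tnfrsf10b (0.759) and Tnr (0.814), and the lowest for Sec24d (0.820), Eif2ak3 (0.808), Slc7a5 (0.814), Jun (0.792), Scd1 (0.885) and Fads2 (0.785). Thapsigargin WT replicate 1 was the highest for Trib3 (0.717), Qars (0.745), Mbp (0.746) and Gfap (0.751). Thapsigargin Nrf2-/- replicate 3 was the highest for E2f1 (0.802). The untreated library labelled Nrf2-/- replicate 3 was the highest for Atp2a3 (1.000), Itpr2 (0.882), Myrf (0.816), Tcf7l2 (0.879), Prox1 (0.781), Tnr (0.844), Sema4a (0.763) and Tns1 (0.810), and the lowest for Stt3a (0.729). Untreated Nrf2-/- replicate 2 was the lowest for Dnajb9 (0.748), Ugt8a (0.776) and Alox5 (0.846). Untreated Nrf2-/- replicate 1 was the highest for Hes5 (0.785) and Pla2g3 (0.834), and the lowest for Aars2 (0.746). Untreated WT replicate 1 was the highest for Slc16a3 (0.729). Untreated WT replicate 2 was the lowest for Cdkn1a (0.769). What sets these libraries apart was not tested.

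The response differed between 8 h and 1 h for 9244 genes by the edgeR test of the difference itself. On the log2 scale, the response at 8 h minus that at 1 h was 6.73 for Cth, 7.34 for Hrk, 8.42 for Nupr1, 10.14 for Slc7a11, 9.83 for Trib3 and 10.26 for Trim66. It was negative for others, at -4.48 for Alox5, -4.64 for Fam205a1, -4.61 for Kif19a, -1.75 for Klf10, -1.32 for Klf6, -4.34 for Myo18b, -3.48 for Nr4a1, -4.70 for Plekhf1 and -4.46 for Sema4a.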

How the results depend on the processing

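The numbers of calls over all tested genes stayed within 1.5 times of those given under all settings tried. Counts within some gene lists moved further, as for the ribosomal protein genes, of which 20 to 52 were called higher. Over 10 alternatives 9456 to 11048 genes passed for the 8 h response and 3303 to 3939 by 2-fold or more, and over 10 fits that each left out 1 library 9833 to 10470 and 3377 to 3578. The genotype difference stayed at 0 genes in 9 alternatives and 10 such fits. The difference between hours gave 8872 to 9493 genes in 9 alternatives and 8981 to 9434 in 20 such fits. DESeq2 called 10043 of the 10296 genes in the same direction, and kallisto counts 9102, with 16 in the other. Leaving out the 2 libraries that stand apart, or the 3 whose genotype is in doubt, was chosen after seeing the data. Of 190 single-gene results 184 kept call and direction throughout. These are log2 folds at 8 h and, for some of the same genes, differences between hours. Nfe2l2, not called at -0.16, had a positive log2 fold with the genotype tag (0.18), with no genotype term (0.67), without the 3 libraries in doubt (1.20), without the 2 that stand apart (1.29), and in fits that each left out 1 library (-0.77 to 1.26, positive in 3 of 10); its highest value came without the untreated library labelled Nrf2-/- replicate 3, and the cause was not tested. Ube2j2, Tnfrsf10b and Gfap lost their call in some fits, and Myrf and Pdgfra gained one. No paired analysis was possible because the labels give no replicate number shared across groups; replicate numbers here follow the order of the libraries and only name them. The share of spliced Xbp1 was not run.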
